A study of Mus musculus with 20 samples.

Results

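The genes from Lipi to Hunk form the first stretch of the duplication that Dp1Tyb mice carry, which copies mouse chromosome 16 from Lipi to Zbtb21 in tandem. The members are the rows of the deposited table whose Ensembl identifier falls between these genes, both included, in the gene order of GENCODE for GRCm39, whatever the gene type and with 1 gene of the interval left out by the rule. In all, 123 of the 48795 genes of the table are members, and they lie on chromosome 16 between positions 75337402 and 90296443 of GRCm39. The mice are of the C57BL/6J background. The comparison uses RNA of 20 whole hearts dissected from mouse embryos at embryonic day 13.5, each from a separate embryo. Of these, 10 hearts were WT, with 2 copies of every member. A further 5 hearts were Dp1Tyb, with 3 copies of every member. The last 5 were labelled Dp1TybDyrk1a+/+/-. They have the same duplication and hence 3 copies of every member, together with the null allele Dyrk1a tm1Mla on the duplicated chromosome, so that only Dyrk1a, which lies beyond Hunk, returns to 2 functional copies. Each mutant genotype comes from a single engineered strain, and a whole heart mixes all its cell types.

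Down syndrome, trisomy of human chromosome 21, is a disorder of gene dosage, and the stretch studied here is the mouse counterpart of the part of that chromosome nearest the centromere. A gene present in an extra copy is usually transcribed in proportion to its copies, unless feedback on its own RNA or a limiting factor buffers it. The proteins encoded here work in unrelated places: App gives the precursor of the amyloid peptide, Gabpa and Bach1 are transcription factors, Cct8 and Atp5pf are single subunits of large assemblies whose other subunits are encoded elsewhere, Adamts1 and Adamts5 cut proteoglycans such as versican in the matrix of the developing heart, and Cxadr and Jam2 are adhesion proteins of cell junctions. Lipi itself, the hair keratin-associated genes and Tmprss15 belong to tissues other than heart.

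Several members share sequence with another gene or share a start region, and these sequences bear on the values below. Btg3 (ENSMUSG00000022863), a member of the antiproliferative BTG family, has an intronless copy named Gm7334 on chromosome 17 of GRCm39 from 51005716 to 51006471, outside the duplication. All 756 bases of Gm7334 match the Btg3 transcript with 0 mismatches, from the first base of the Btg3 coding sequence to the codon before its stop, across 3 exon junctions. The stretch printed here spans the first of these junctions, with the 3 bases on either side of it in capitals. A read that lies wholly within the 756 matching bases of spliced RNA has the same letters in both genes. These bases make up 19.2% of the 3941 bases of the Btg3 transcript, and reads from the rest of it differ from Gm7334.
Btg3: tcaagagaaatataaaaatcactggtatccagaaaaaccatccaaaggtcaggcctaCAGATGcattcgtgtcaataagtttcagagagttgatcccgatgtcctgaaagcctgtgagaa
Gm7334: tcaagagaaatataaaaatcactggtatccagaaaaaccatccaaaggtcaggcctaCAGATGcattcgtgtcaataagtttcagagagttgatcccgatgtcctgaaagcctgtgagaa

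Pairs of members that start head to head are shown next, because both genes of a pair gain a copy of the same start region. Gabpa encodes the DNA-binding subunit of the factor GABP, and its promoter window in RefSeq (GRCm38.p6, chr16:84834874-84835173, plus strand, from 250 bases before to 50 bases after the start) also holds a start of Atp5pf, which is transcribed the opposite way from a point 148 bases upstream. Cct8 (chr16:87495820-87496119, minus strand) shares its window with the RNA B130034C11Rik, which starts 204 bases away on the other strand. Capitals mark CCGGAAG or its reverse complement CTTCCGG, the core that ETS factors such as GABP recognise.
Gabpa: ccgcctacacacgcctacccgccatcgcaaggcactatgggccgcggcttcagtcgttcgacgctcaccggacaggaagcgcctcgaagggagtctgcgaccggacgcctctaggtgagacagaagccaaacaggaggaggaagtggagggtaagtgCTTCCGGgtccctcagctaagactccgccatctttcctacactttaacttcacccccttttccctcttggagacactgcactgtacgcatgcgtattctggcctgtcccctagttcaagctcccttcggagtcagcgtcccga
Cct8: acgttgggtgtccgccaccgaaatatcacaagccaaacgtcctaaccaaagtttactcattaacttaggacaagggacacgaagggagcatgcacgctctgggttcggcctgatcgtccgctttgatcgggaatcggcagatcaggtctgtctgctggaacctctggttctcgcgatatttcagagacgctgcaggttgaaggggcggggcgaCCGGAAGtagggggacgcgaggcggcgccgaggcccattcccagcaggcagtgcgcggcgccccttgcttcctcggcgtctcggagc
Of the 24 tested members with a window in the table, 6 hold this motif on either strand (Btg3, Atp5pf, Gabpa, Usp16, Cct8 and B130034C11Rik), where Atp5pf and Gabpa share 1 occurrence and Cct8 and B130034C11Rik another. Over all genes with a window, 9.93% hold it. A match describes the letters only, and binding was not measured.

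Mir99ahg, a long RNA that hosts a cluster of miRNAs, carries in its introns 3 members whose mature strands are printed with the seed (bases 2 to 8) in capitals. They are shown because the host was measured while the miRNAs themselves were not.
mmu-miR-99a-5p: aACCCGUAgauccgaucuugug
mmu-let-7c-5p: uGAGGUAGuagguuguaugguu
mmu-miR-125b-5p: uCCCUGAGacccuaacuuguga
The seeds of these 3 strands differ from each other. The hairpin rows Mir99a, Mirlet7c-1 and Mir125b-2, and that of Mir155 in the same stretch of chromosome, were at 0 in every heart, in libraries made for mRNA.

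The deposited values are log2-transformed normalized counts, and all values below are on that scale unless stated. Sequencing depth per library is unknown from such values, and the number of hearts sets the precision. Dyrk1a, the gene with the null allele, ran from 11.28 to 11.43 in WT, from 11.65 to 11.75 in Dp1Tyb and from 11.70 to 11.85 in hearts labelled Dp1TybDyrk1a+/+/-. Its RNA level over the whole gene therefore does not check that label. The study reports that RNAseq found a Dyrk1a allele with deleted exons in this strain. It also reports more DYRK1A protein in Dp1Tyb hearts than in hearts of this strain. Heart A15, labelled Dp1TybDyrk1a+/+/-, stood apart from the rest, with a mean root-mean-square difference to the other hearts of 0.235, and WT heart A10 followed with 0.168, against 0.109 to 0.133 for the other 18 hearts. Values of the mutant hearts are listed in the order A3, A4, A6, A7 and A12 for Dp1Tyb and A9, A14, A15, A17 and A18 for Dp1TybDyrk1a+/+/-. The libraries were sequenced in lanes 3, 6 and 7, with 4, 4 and 2 WT hearts, 2, 2 and 1 Dp1Tyb hearts and 1, 1 and 3 hearts labelled Dp1TybDyrk1a+/+/-. Markers of cardiomyocytes averaged 14.44 to 14.76 over the 20 hearts, and all 10 passed the filter on low values. Of the liver markers 2 of 4 passed (Alb and Afp, not Apoa1 and Ttr), and these averaged 3.92 to 4.26. Of the lung epithelium markers 3 of 4 passed (Nkx2-1, Cdh1 and Epcam, not Sftpc), and these averaged 5.51 to 6.64. Across the marker lists of 10 cell types, 0 of 60 tested genes passed the threshold in any comparison. In Dp1Tyb against WT, 7 markers had an unadjusted P-value under 0.05 (limma), 11.7% beside 15.6% of all genes tested. In Dp1TybDyrk1a+/+/- against WT there were 4, 6.67% beside 9.64%. Between the 2 mutant genotypes there were 4, 6.67% beside 18.5%. Past the adjusted threshold were 471, 109 and 178 of all 15304 genes in these comparisons.

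Most of the tested members rose in both duplication genotypes, 24 of 36, with log2 fold changes between 0.12 (Samsn1) and 0.46 (Cxadr). Of the 123 members, 66 were at 0 in every heart, 21 varied but averaged fewer than 10 normalized counts and were not tested, and 36 were tested. In Dp1Tyb hearts 24 of the 36 rose compared to WT and 0 fell, against 1.81% of all 15304 genes tested that rose (limma, Benjamini-Hochberg adjusted P-value under 0.05). In hearts labelled Dp1TybDyrk1a+/+/-, 24 of 36 rose and 0 fell, against a background of 0.627%, and these were the same 24 genes. Both comparisons share the 10 WT hearts, and leaving out A15 or A10 left the counts at 24. The median log2 fold change over the 36 tested members was 0.28 in Dp1Tyb and 0.33 in hearts labelled Dp1TybDyrk1a+/+/-, beside -0.002 and -0.003 over all genes tested. It depended on the filter on low values, and was 0.028 and 0.036 over the 57 members that varied at all and 0.335 and 0.369 over the 25 members that averaged 100 or more normalized counts. Over the 24 that rose it was 0.34 (1.26-fold) and 0.37 (1.29-fold). For 23 of the 36 tested members, every Dp1Tyb heart lay above every WT heart, which 1.51% of all genes tested showed. Among the 24 that rose, the exception was Mrpl39. For 23 of the 36, every heart labelled Dp1TybDyrk1a+/+/- lay above every WT heart, which 0.562% of all genes showed. Here the exception among the 24 was D16Ertd472e. In whole hearts, a change in the number of cells of a type and a change in RNA per cell cannot be told apart.

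**Figure D1:**
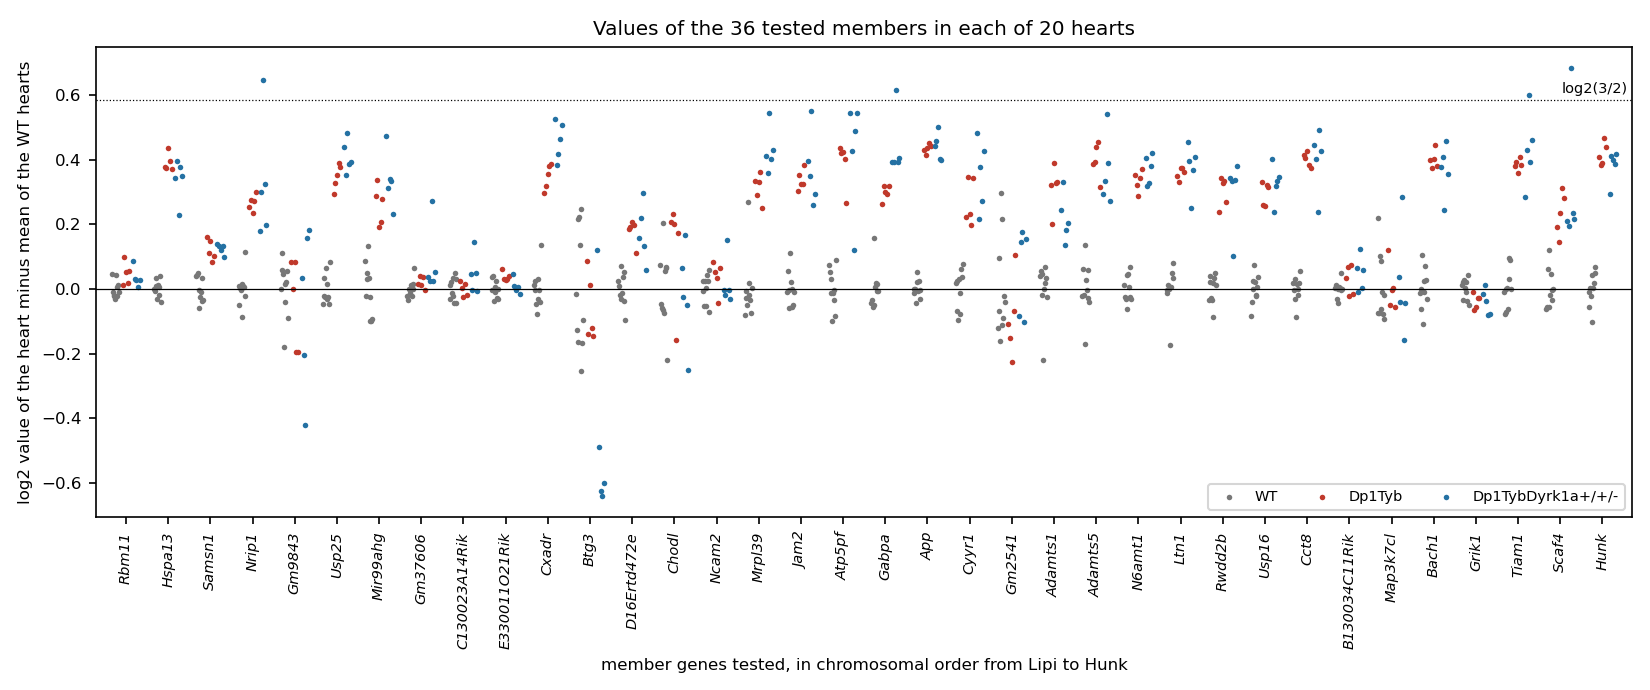
Log2 value of each tested member in each heart minus the mean of the 10 WT hearts (y axis), with the 36 genes in chromosomal order (x axis), WT hearts in grey, Dp1Tyb in red and hearts labelled Dp1TybDyrk1a+/+/- in blue. The coloured points of 24 genes sit together above the grey ones, those of the weakly expressed genes and of Gm9843 do not, and those of Btg3 spread downwards. The dotted line is the log2 of 1.5, the ratio of 3 to 2 copies.

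The rise was of similar size in every mutant heart and in every lane. Taking each heart's median over the 24 members that rose, measured from the WT mean, the Dp1Tyb hearts gave 0.326 to 0.352 and the hearts labelled Dp1TybDyrk1a+/+/- gave 0.351 to 0.395, while WT hearts lay between -0.008 and 0.022. Within lanes 3, 6 and 7 the median difference of the 36 members was 0.274, 0.271 and 0.278 for Dp1Tyb and 0.301, 0.299 and 0.307 for hearts labelled Dp1TybDyrk1a+/+/-. All 24 lay above 0 in each lane and in both genotypes. These 24 were chosen for their rise in the same hearts, and WT hearts lie near 0 because values are measured from the WT mean. The signs of the values over the 24 were thus largely fixed beforehand, and only their sizes are described. The highest log2 fold changes were 0.44 for App in Dp1Tyb and 0.46 for Cxadr in hearts labelled Dp1TybDyrk1a+/+/-. Every one of the 24 had the upper limit of its 95% interval below 0.585, the log2 of 1.5, in both genotypes. The study itself, which used DESeq2, reports a rise of about 1.5-fold for the 3-copy genes of Dp1Tyb hearts. The transformation behind the deposited values is not named in the sources used here, and its part in this gap to 1.5 was not tested. The gap is therefore not read here as a shortfall from the copy number.

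The size of the difference followed the level of the gene. Of the 16 members with a mean normalized count of 1000 or more, 15 rose in Dp1Tyb, beside 73 of all 4228 genes of that level. The median log2 fold change of the 16 was 0.35, beside -0.012 over all genes of that level. From 100 to 1000, 8 of 9 rose with a median of 0.30, beside 144 of all 7171 genes and 0.001. From 10 to 100, 1 of 11 rose with a median of 0.03, beside 60 of all 3905 genes and 0.002. In hearts labelled Dp1TybDyrk1a+/+/- the counts were again 15 of 16, 8 of 9 and 1 of 11. Over all genes of these levels, 43, 48 and 5 rose in that genotype. The medians of the members were 0.37, 0.355 and 0.04, beside 0.01, -0.008 and -0.007. The members above 100 that did not rise were Btg3 and Gm9843, and the member under 100 that did was Samsn1. The part of the unnamed transformation in these differences between levels was not tested.

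**Figure D2:**
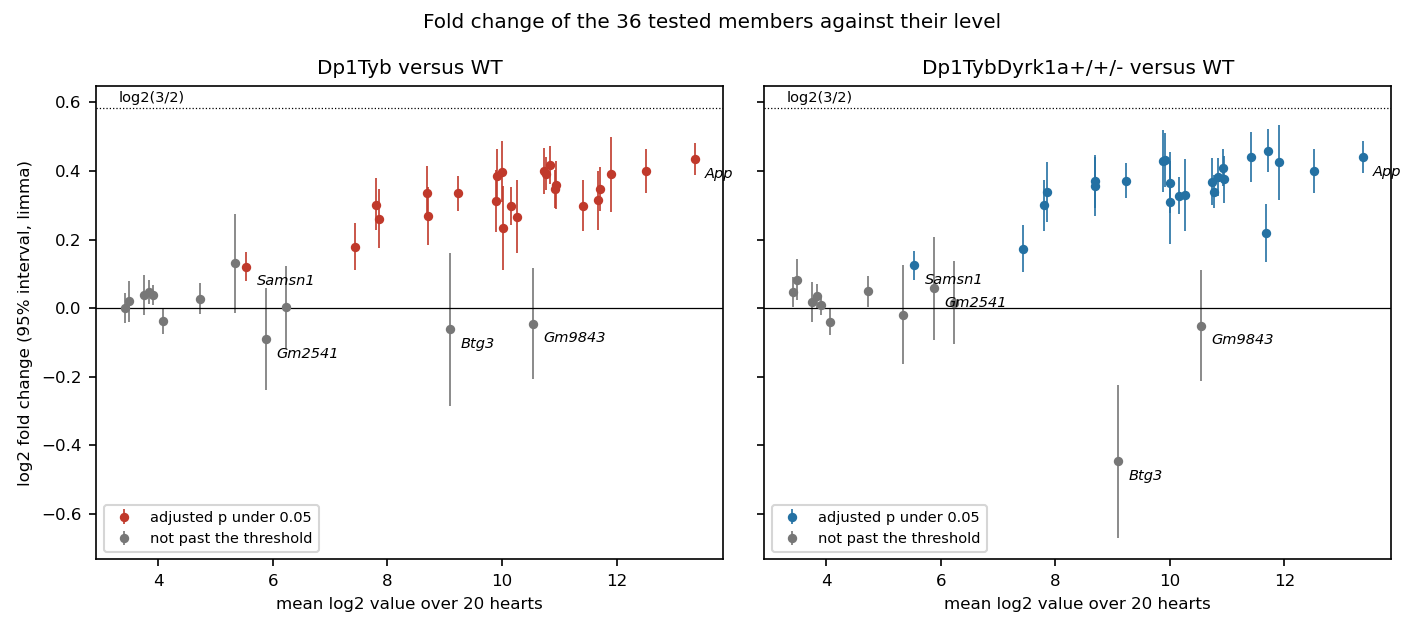
Log2 fold change with its 95% interval (y axis) against the mean log2 value over the 20 hearts (x axis) for the 36 tested members, in Dp1Tyb (left) and in hearts labelled Dp1TybDyrk1a+/+/- (right), with members past the threshold in colour and the rest in grey. Members at low level lie near 0, the 24 coloured ones lie between 0.12 (Samsn1) and 0.46 (Cxadr), and Btg3 and Gm9843 are the grey points at high level.

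The genes of protein folding, ubiquitin and translation quality control all rose, 5 of 5 in both genotypes. Cct8 (ENSMUSG00000025613, chromosome 16 of GRCm39 from 87279168 to 87292801) encodes a subunit of the CCT chaperonin, which folds actin and tubulin. Its value ran from 12.23 to 12.37 with a median of 12.33 over the 10 WT hearts, was 12.73, 12.72, 12.74, 12.70 and 12.69 in the Dp1Tyb hearts and was 12.76, 12.72, 12.56, 12.81 and 12.75 in the hearts labelled Dp1TybDyrk1a+/+/-. All 10 mutant hearts lay above the highest WT heart, and A15 was the lowest of them. The log2 fold change was 0.40 in Dp1Tyb (standard error 0.031, limma adjusted P-value 2.95e-08) and 0.40 in hearts labelled Dp1TybDyrk1a+/+/- (standard error 0.031, adjusted P-value 1.87e-08). Hspa13 is an HSP70-family protein of the endoplasmic reticulum. On the log2 scale it ran from 10.55 to 10.63 with a median of 10.59 over the 10 WT hearts, was 10.97, 10.97, 11.03, 10.99 and 10.96 in the Dp1Tyb hearts and was 10.94, 10.99, 10.82, 10.97 and 10.94 in the hearts labelled Dp1TybDyrk1a+/+/-. Mutant and WT hearts did not overlap, and A15 was again the lowest mutant heart. In log2 terms the difference from WT was 0.39 in Dp1Tyb (standard error 0.023, limma adjusted P-value 5.06e-10) and 0.34 in hearts labelled Dp1TybDyrk1a+/+/- (standard error 0.023, adjusted P-value 2.48e-09).

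Ltn1, the ubiquitin ligase that marks unfinished chains on stalled ribosomes, gave a tight set of Dp1Tyb values. It ran from 10.58 to 10.84 with a median of 10.76 over the 10 WT hearts, was 11.10, 11.09, 11.13, 11.13 and 11.12 in the Dp1Tyb hearts and was 11.21, 11.15, 11.01, 11.12 and 11.16 in the hearts labelled Dp1TybDyrk1a+/+/-. WT heart A10 was the lowest of all, and no mutant heart reached down to the WT range. Compared to WT the log2 fold change was 0.36 in Dp1Tyb (standard error 0.033, limma adjusted P-value 3.62e-07) and 0.38 in hearts labelled Dp1TybDyrk1a+/+/- (standard error 0.033, adjusted P-value 1.33e-07). Usp25 is a deubiquitinase. The log2 normalized count ran from 10.69 to 10.82 with a median of 10.71 over the 10 WT hearts, was 11.03, 11.06, 11.09, 11.12 and 11.11 in the Dp1Tyb hearts and was 11.17, 11.09, 11.22, 11.12 and 11.13 in the hearts labelled Dp1TybDyrk1a+/+/-. Every mutant heart was above every WT heart. This gave a log2 fold change of 0.35 in Dp1Tyb (standard error 0.026, limma adjusted P-value 1.72e-08) and 0.41 in hearts labelled Dp1TybDyrk1a+/+/- (standard error 0.026, adjusted P-value 1.28e-09). Usp16, a deubiquitinase that acts on histones, ran from 9.92 to 10.08 in WT, from 10.26 to 10.34 in Dp1Tyb and from 10.24 to 10.41 in hearts labelled Dp1TybDyrk1a+/+/-. Its log2 fold changes were 0.30 and 0.33 (adjusted P-values 1.77e-07 and 3.19e-08). The gene model of Usp16 overlaps those of Cct8 and Rwdd2b on the opposite strand. So do those of Btg3 and Cxadr, of Atp5pf with Jam2 and Gabpa, of Cct8 and B130034C11Rik and of Cxadr and E330011O21Rik. The strand setting of the counting is not given in the sources used here, and without strand the reads of such overlaps cannot be told apart.

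Both mitochondrial members rose. Atp5pf encodes a subunit of the stalk of ATP synthase and starts back to back with Gabpa in the window shown above. Measured values ran from 11.60 to 11.79 with a median of 11.69 over the 10 WT hearts, were 12.14, 12.12, 12.12, 12.10 and 11.97 in the Dp1Tyb hearts and were 12.24, 12.13, 11.82, 12.19 and 12.25 in the hearts labelled Dp1TybDyrk1a+/+/-. A12 was the lowest Dp1Tyb heart and A15 the lowest of the other genotype, just above the highest WT heart. The fitted log2 difference was 0.39 in Dp1Tyb (standard error 0.053, limma adjusted P-value 7.89e-05) and 0.42 in hearts labelled Dp1TybDyrk1a+/+/- (standard error 0.053, adjusted P-value 2.5e-05). Mrpl39 encodes a protein of the large subunit of the mitochondrial ribosome. It ran from 9.62 to 9.97 in WT, from 9.95 to 10.06 in Dp1Tyb and from 10.06 to 10.25 in hearts labelled Dp1TybDyrk1a+/+/-. The highest WT value was that of A10, which overlapped the Dp1Tyb hearts. Its log2 fold changes were 0.31 and 0.43 (limma adjusted P-values 9.41e-05 and 9.33e-07).

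Of the regulators of transcription, chromatin and RNA, 5 of 7 rose in both genotypes. Bach1 (ENSMUSG00000025612, chromosome 16 of GRCm39 from 87495782 to 87530234) is a heme-sensing repressor. Its value ran from 10.43 to 10.64 with a median of 10.53 over the 10 WT hearts, was 10.94, 10.91, 10.94, 10.98 and 10.92 in the Dp1Tyb hearts and was 10.91, 10.95, 10.78, 10.99 and 10.89 in the hearts labelled Dp1TybDyrk1a+/+/-. The lowest mutant heart, A15, lay above all WT hearts. The log2 fold change was 0.40 in Dp1Tyb (standard error 0.033, limma adjusted P-value 5.4e-08) and 0.37 in hearts labelled Dp1TybDyrk1a+/+/- (standard error 0.033, adjusted P-value 1.22e-07). Gabpa ran from 11.18 to 11.39 with a median of 11.23 in WT, and its 5 values were 11.50, 11.56, 11.54, 11.53 and 11.56 in Dp1Tyb and 11.63, 11.63, 11.85, 11.63 and 11.64 in hearts labelled Dp1TybDyrk1a+/+/-. A15 was far above the other hearts of its group. In log2 terms the difference from WT was 0.30 in Dp1Tyb (standard error 0.035, limma adjusted P-value 1.28e-05) and 0.44 in hearts labelled Dp1TybDyrk1a+/+/- (standard error 0.035, adjusted P-value 3.15e-08). Without A15 the second value was 0.396, still past the threshold. N6amt1, the catalytic subunit of a methyltransferase that modifies a translation release factor, rose by 0.34 and 0.37 (adjusted P-values 9.42e-09 and 1.82e-09). Nrip1, a corepressor of nuclear receptors, rose by 0.27 and 0.33 (adjusted P-values 0.00418 and 0.000502).

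Scaf4, which binds RNA polymerase II and restrains premature polyadenylation, was the weakest call of this group. It ran from 9.81 to 9.99 in WT, from 10.02 to 10.19 in Dp1Tyb and from 10.07 to 10.56 in hearts labelled Dp1TybDyrk1a+/+/-. Compared to WT the log2 fold change was 0.23 in Dp1Tyb (standard error 0.058, limma adjusted P-value 0.0307) and 0.31 in hearts labelled Dp1TybDyrk1a+/+/- (standard error 0.058, adjusted P-value 0.00665). The highest value was that of A15 at 10.56, and without A15 the log2 fold change of the second comparison was 0.215, still past the threshold. The call in Dp1Tyb was lost in 5 of the 15 refits that each dropped 1 heart, those without A2, A12, A3, A6 or A7, where the log2 fold change lay between 0.214 and 0.244. Rbm11, a splicing regulator of brain and testis, was measured near the floor. On the log2 scale it ran from 3.78 to 3.86 with a median of 3.80 over the 10 WT hearts, was 3.83, 3.91, 3.87, 3.83 and 3.87 in the Dp1Tyb hearts and was 3.90, 3.85, 3.84, 3.82 and 3.84 in the hearts labelled Dp1TybDyrk1a+/+/-. The groups overlapped, and its log2 fold changes of 0.05 and 0.04 did not pass the threshold (adjusted P-values 0.142 and 0.5).

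Of the adhesion proteins, 2 of the 4 tested rose in both genotypes. Cxadr is the receptor of coxsackie and adenoviruses and a junction protein that the embryonic heart needs. It ran from 11.43 to 11.64 with a median of 11.50 over the 10 WT hearts, was 11.80, 11.82, 11.86, 11.89 and 11.89 in the Dp1Tyb hearts and was 12.03, 11.89, 11.92, 11.97 and 12.01 in the hearts labelled Dp1TybDyrk1a+/+/-. Each mutant heart lay above the highest WT heart, A20, and A9 was the highest of all. This gave a log2 fold change of 0.35 in Dp1Tyb (standard error 0.031, limma adjusted P-value 1.57e-07) and 0.46 in hearts labelled Dp1TybDyrk1a+/+/- (standard error 0.031, adjusted P-value 1.89e-09). Jam2 is a junctional adhesion molecule. The log2 normalized count ran from 8.46 to 8.63 with a median of 8.51 over the 10 WT hearts, was 8.82, 8.87, 8.84, 8.84 and 8.90 in the Dp1Tyb hearts and was 8.92, 8.87, 9.07, 8.78 and 8.81 in the hearts labelled Dp1TybDyrk1a+/+/-. Mutant and WT hearts did not overlap. The fitted log2 difference was 0.34 in Dp1Tyb (standard error 0.037, limma adjusted P-value 3.59e-06) and 0.37 in hearts labelled Dp1TybDyrk1a+/+/- (standard error 0.037, adjusted P-value 8.18e-07). Chodl, a lectin-like membrane protein, gave scattered values. Measured values ran from 5.09 to 5.52 with a median of 5.32 over the 10 WT hearts, were 5.52, 5.55, 5.51, 5.16 and 5.49 in the Dp1Tyb hearts and were 5.38, 5.29, 5.48, 5.26 and 5.06 in the hearts labelled Dp1TybDyrk1a+/+/-. A7 stood below the other Dp1Tyb hearts, all groups overlapped, and neither log2 fold change, 0.13 or -0.02, passed the threshold (adjusted P-values 0.383 and 0.944). Ncam2 is a neural adhesion molecule. Its value ran from 3.66 to 3.79 with a median of 3.75 over the 10 WT hearts, was 3.81, 3.78, 3.77, 3.69 and 3.80 in the Dp1Tyb hearts and was 3.73, 3.71, 3.88, 3.73 and 3.70 in the hearts labelled Dp1TybDyrk1a+/+/-. Its log2 fold changes were 0.04 and 0.02 and not past the threshold (adjusted P-values 0.571 and 0.84). Of the claudins, Cldn8 varied but stayed under the filter, with a mean log2 value of 2.56, and Cldn17 was at 0 in every heart.

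Both secreted metalloproteases rose. Adamts5 cleaves versican and aggrecan. On the log2 scale it ran from 9.64 to 9.95 with a median of 9.80 over the 10 WT hearts, was 10.20, 10.21, 10.25, 10.27 and 10.13 in the Dp1Tyb hearts and was 10.11, 10.15, 10.36, 10.20 and 10.09 in the hearts labelled Dp1TybDyrk1a+/+/-. The mutant hearts were all above the WT range. The log2 fold change was 0.40 in Dp1Tyb (standard error 0.043, limma adjusted P-value 3.41e-06) and 0.37 in hearts labelled Dp1TybDyrk1a+/+/- (standard error 0.043, adjusted P-value 1.16e-05). Adamts1, a related protease, ran from 11.32 to 11.61 in WT, from 11.75 to 11.93 in Dp1Tyb and from 11.68 to 11.88 in hearts labelled Dp1TybDyrk1a+/+/-. It rose by 0.31 and 0.22 (adjusted P-values 4.36e-05 and 0.00538), and between the mutant genotypes the difference of 0.09 had a 95% interval of -0.004 to 0.192. Genes of fibroblasts and cushion mesenchyme were a little higher in Dp1Tyb than in WT, with a median log2 fold change of 0.098 over 8 markers. Of the 8, 0 passed the threshold and 3 (37.5%) had an unadjusted P-value under 0.05 (limma), beside 15.6% of all genes tested. The median of the 8 markers was -0.026 in hearts labelled Dp1TybDyrk1a+/+/-. Averaged over the 8 markers, hearts ran from 12.51 to 12.93 in WT, from 12.78 to 12.96 in Dp1Tyb and from 12.58 to 12.98 in the other genotype. The part of these cells in the values of both proteases was not tested.

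App (ENSMUSG00000022892, chromosome 16 of GRCm39 from 84746573 to 84971126), which encodes the amyloid precursor protein, had the largest log2 fold change of the members in Dp1Tyb. It ran from 13.10 to 13.20 with a median of 13.14 over the 10 WT hearts, was 13.58, 13.56, 13.58, 13.60 and 13.59 in the Dp1Tyb hearts and was 13.59, 13.60, 13.65, 13.55 and 13.54 in the hearts labelled Dp1TybDyrk1a+/+/-. The spread within each group was small beside the gap between WT and mutant hearts. In log2 terms the difference from WT was 0.44 in Dp1Tyb (standard error 0.022, limma adjusted P-value 4.94e-11) and 0.44 in hearts labelled Dp1TybDyrk1a+/+/- (standard error 0.022, adjusted P-value 3.82e-11). Cyyr1, a cysteine- and tyrosine-rich membrane protein, rose by 0.27 and 0.35 (adjusted P-values 0.000337 and 8.05e-06). Grik1, a kainate receptor subunit of neurons, was weak. The log2 normalized count ran from 4.04 to 4.14 with a median of 4.10 over the 10 WT hearts, was 4.08, 4.03, 4.04, 4.07 and 4.07 in the Dp1Tyb hearts and was 4.08, 4.11, 4.05, 4.01 and 4.02 in the hearts labelled Dp1TybDyrk1a+/+/-. The groups overlapped, and its log2 fold changes of -0.04 and -0.04 did not pass the threshold (adjusted P-values 0.313 and 0.475).

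Among the signalling members, 3 of 4 rose in both genotypes. Hunk (ENSMUSG00000053414, chromosome 16 of GRCm39 from 90182901 to 90296443), a kinase of the AMPK-related family, closes the stretch. Measured values ran from 10.54 to 10.71 with a median of 10.65 over the 10 WT hearts, were 11.05, 11.03, 11.04, 11.11 and 11.08 in the Dp1Tyb hearts and were 10.94, 11.06, 11.04, 11.03 and 11.06 in the hearts labelled Dp1TybDyrk1a+/+/-. A9 was the lowest mutant heart and still above all WT hearts. Compared to WT the log2 fold change was 0.42 in Dp1Tyb (standard error 0.027, limma adjusted P-value 1.57e-09) and 0.38 in hearts labelled Dp1TybDyrk1a+/+/- (standard error 0.027, adjusted P-value 3.71e-09). Tiam1 activates the GTPase Rac. Its value ran from 9.64 to 9.81 with a median of 9.71 over the 10 WT hearts, was 10.10, 10.11, 10.07, 10.12 and 10.10 in the Dp1Tyb hearts and was 9.999, 10.14, 10.31, 10.11 and 10.17 in the hearts labelled Dp1TybDyrk1a+/+/-. Mutant hearts lay above all WT hearts, with A15 highest and A9 lowest among the mutant hearts. This gave a log2 fold change of 0.38 in Dp1Tyb (standard error 0.038, limma adjusted P-value 8.01e-07) and 0.43 in hearts labelled Dp1TybDyrk1a+/+/- (standard error 0.038, adjusted P-value 1.13e-07). Samsn1, an adaptor of blood cells, rose by 0.12 and 0.12 (adjusted P-values 0.00118 and 0.00109), the smallest rise of the 24, with values from 5.41 to 5.52 in WT and from 5.56 to 5.63 in Dp1Tyb. Markers of macrophages had a median log2 fold change of -0.017 in Dp1Tyb, with 0 of 6 past the threshold. Map3k7cl, named for its likeness to the end of a MAP kinase kinase kinase, did not differ detectably. On the log2 scale it ran from 6.13 to 6.44 with a median of 6.18 over the 10 WT hearts, was 6.34, 6.17, 6.21, 6.22 and 6.16 in the Dp1Tyb hearts and was 6.25, 6.18, 6.50, 6.06 and 6.17 in the hearts labelled Dp1TybDyrk1a+/+/-. The groups overlapped, with log2 fold changes of 0.00 (95% interval -0.12 to 0.12) and 0.02 (-0.11 to 0.14).

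**Figure D3:**
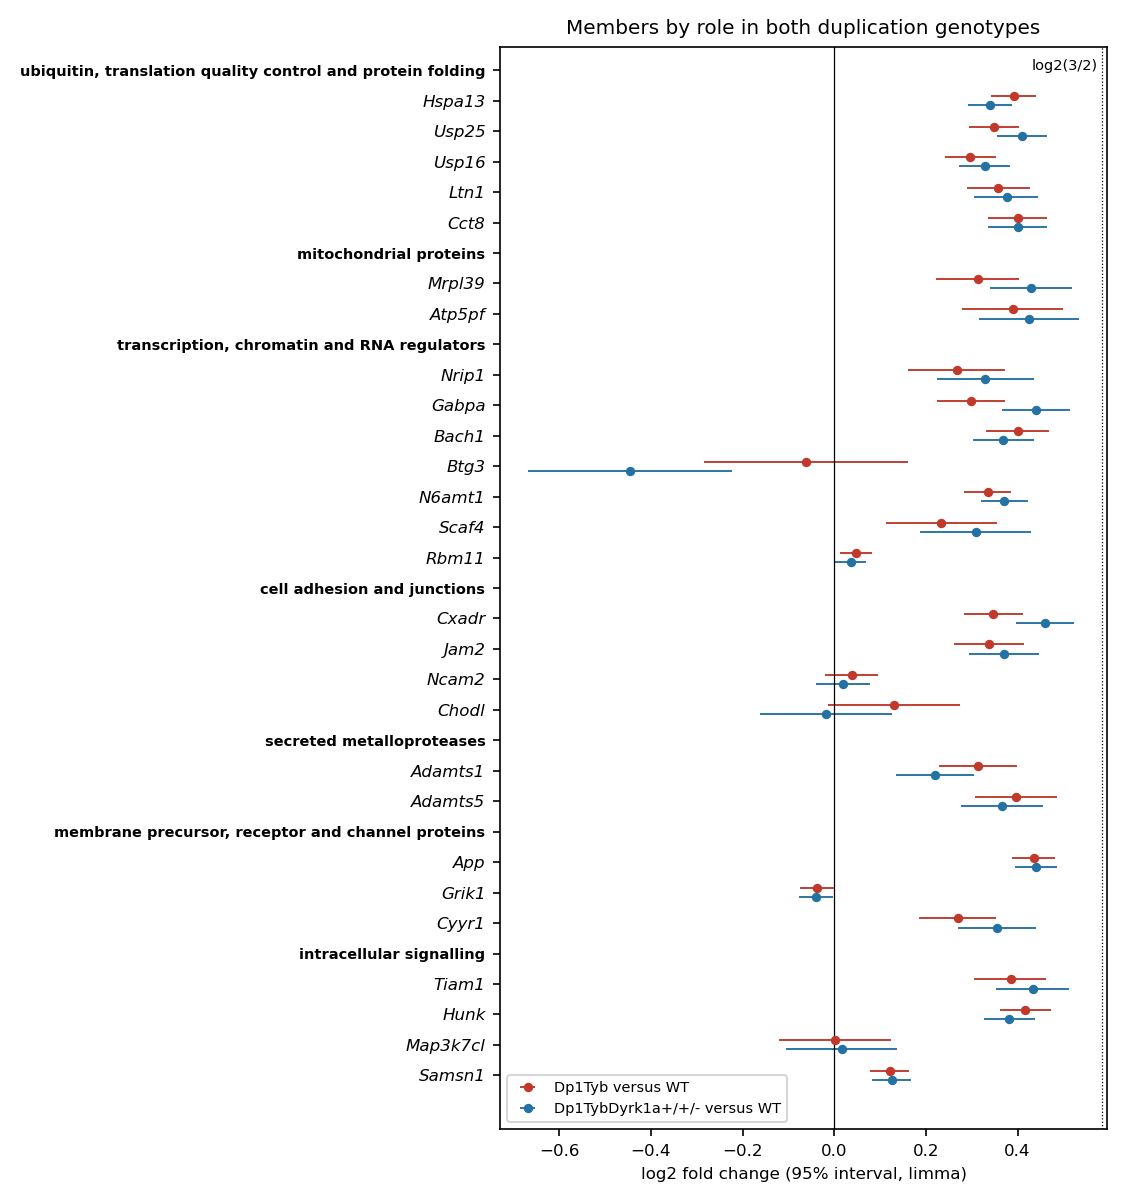
Log2 fold change with its 95% interval (x axis) of the 27 tested members that have a listed role, grouped by role (y axis), in Dp1Tyb (red) and in hearts labelled Dp1TybDyrk1a+/+/- (blue). The pairs of points lie close together for most genes, Btg3 is the exception to the left, and no interval of a gene that rose reaches the dotted line at the log2 of 1.5.

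Btg3 was the strongly expressed coding member that did not rise. It ran from 8.96 to 9.46 with a median of 9.16 over the 10 WT hearts, was 9.30, 9.08, 9.23, 9.10 and 9.07 in the Dp1Tyb hearts and was 9.34, 8.73, 8.59, 8.58 and 8.62 in the hearts labelled Dp1TybDyrk1a+/+/-. The Dp1Tyb hearts lay within the WT range, and 4 of the 5 hearts labelled Dp1TybDyrk1a+/+/- lay below every WT heart, while A9 lay at 9.34. The log2 fold change was -0.06 in Dp1Tyb (standard error 0.107, limma adjusted P-value 0.85) and -0.45 in hearts labelled Dp1TybDyrk1a+/+/- (standard error 0.107, adjusted P-value 0.0582). Without A9 the second value was -0.588 with an adjusted P-value of 0.000222, without WT heart A16 it was -0.475 (0.0422), and with a filter of at least 100 it was -0.446 (0.0485). Within lanes 3, 6 and 7 it was -0.596, 0.143 and -0.448, where lane 6 held A9 alone of its genotype, and with lane as a covariate it was -0.34 (adjusted P-value 0.265).

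Gm7334 (ENSMUSG00000044645), the identical copy on chromosome 17 that has 2 copies in all 3 genotypes, rose in both genotypes. Its log2 value ran from 7.29 to 8.41 in WT, from 8.81 to 9.14 in Dp1Tyb and from 8.85 to 9.35 in hearts labelled Dp1TybDyrk1a+/+/-. Every mutant heart lay above every WT heart, and A9 was the lowest of its genotype. The log2 fold change of Gm7334 was 1.03 in Dp1Tyb (standard error 0.149, limma adjusted P-value 0.000159) and 1.28 in hearts labelled Dp1TybDyrk1a+/+/- (standard error 0.149, adjusted P-value 9.59e-06). The sum of both rows on the linear scale was looked at after the values had been seen, and it is a description with no test. Summed normalized counts of Btg3 and Gm7334 were 792 to 903 in WT (mean 852.1, SD 36, n = 10), 1018 to 1115 in Dp1Tyb (mean 1075, SD 41.4, n = 5) and 1021 to 1110 in hearts labelled Dp1TybDyrk1a+/+/- (mean 1045, SD 36.9, n = 5). The mean sum was 1.26 and 1.23 times that of WT, with no overlap. The same ratios were 1.01 and 1.0 for the sum of Gm9843 and Fau and 1.02 and 1.01 for that of Gm2541 and Dnajb6. These are the other members with a near-identical gene elsewhere. Gm2541 held only 2.9% to 4.5% of its sum, so a rise of Gm2541 could hardly move that ratio. Btg3 held 60.3% to 81.5% of the sum in WT hearts, 49.3% to 58.4% in Dp1Tyb hearts, 58.3% in A9 and 37.1% to 41.6% in the other 4 hearts labelled Dp1TybDyrk1a+/+/-. The division between the rows differed between hearts far more than the sum did, and what sets it was not tested.

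**Figure D4:**
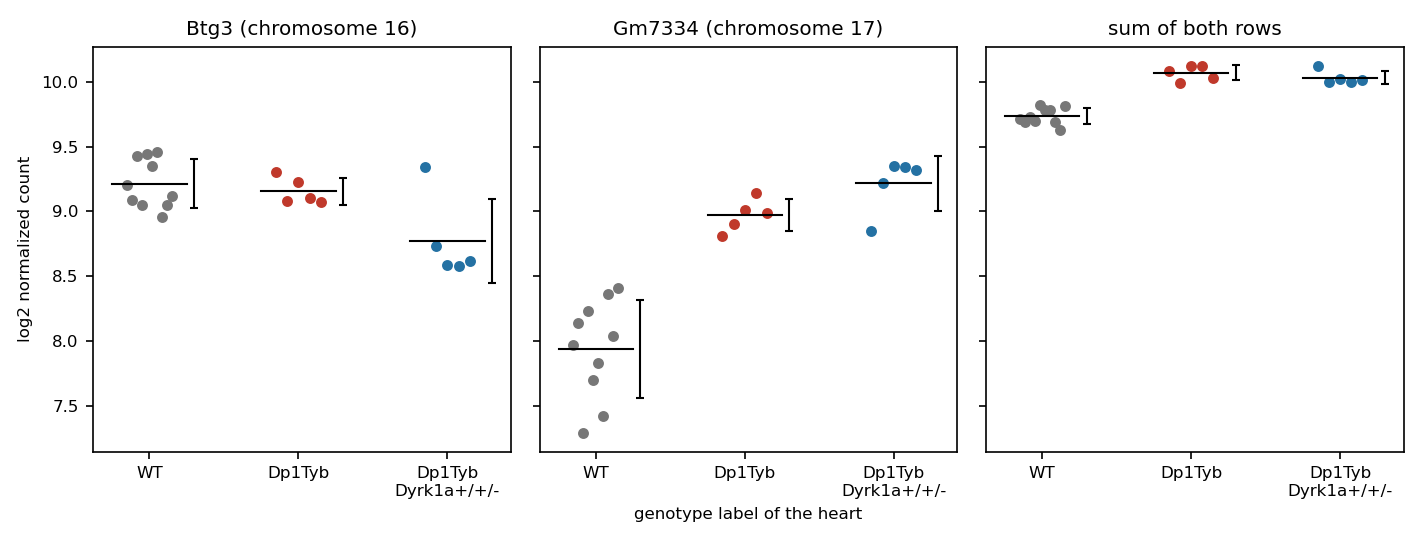
Log2 normalized count (y axis) of Btg3 (left), of its identical copy Gm7334 (middle) and of the sum of both rows (right) in every heart, by genotype label (x axis). Lines mark the mean and bars the SD. The mutant hearts lie within or below the WT range for Btg3 and above it for Gm7334, and in the sum the WT hearts end at 903 normalized counts and the mutant hearts begin at 1018.

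The other strongly expressed member that did not rise is also a copy of another gene. Gm9843, a processed pseudogene of 402 bases, matches the transcript of Fau on chromosome 19, which encodes a ribosomal protein fused to a ubiquitin-like one, over 406 aligned positions with 0 mismatches and 1 gap opening. It ran from 10.39 to 10.68 in WT, from 10.37 to 10.65 in Dp1Tyb and from 10.14 to 10.75 in hearts labelled Dp1TybDyrk1a+/+/-, with A15 lowest. Its log2 fold changes were -0.04 and -0.05 (95% intervals -0.21 to 0.12 and -0.21 to 0.11), and those of Fau were 0.05 and 0.02. Gm2541, a pseudogene that matches Dnajb6 on chromosome 5 over 722 aligned positions with 0 mismatches and 1 gap opening, had log2 fold changes of -0.09 and 0.06 (adjusted P-values 0.612 and 0.812). Reads of these members and of their sources cannot be separated with certainty in the deposited values. A search of the 36 tested transcripts at 95% identity over 200 bases found matches elsewhere for 6 of them. Gm9843 and Gm2541 matched over their whole length. The match of Btg3 covered 19.2% of its transcript, and for Mir99ahg, Mrpl39 and Samsn1 no match covered more than 20% of the transcript either.

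Of the noncoding and uncharacterised members, Mir99ahg, Rwdd2b and D16Ertd472e rose in both genotypes. Mir99ahg, the host of the miRNA cluster printed above, ran from 7.61 to 7.85 in WT, from 7.90 to 8.05 in Dp1Tyb and from 7.94 to 8.18 in hearts labelled Dp1TybDyrk1a+/+/-. It rose by 0.26 and 0.34 (adjusted P-values 0.000634 and 2.1e-05), and it was the only one of the 7 tested members that are not protein-coding to pass the threshold. Rwdd2b, which encodes an RWD-domain protein, rose by 0.30 and 0.30 (adjusted P-values 1.46e-05 and 1.65e-05). D16Ertd472e rose by 0.18 and 0.17 (adjusted P-values 0.00326 and 0.0074), and of the hearts labelled Dp1TybDyrk1a+/+/- only A18 overlapped WT. The log2 fold changes of Gm37606, C130023A14Rik, E330011O21Rik and B130034C11Rik in Dp1Tyb were 0.02, -0.001, 0.04 and 0.03, none of them past the threshold. All 4 had mean log2 values of 3.42 to 4.73, where the deposited values vary little.

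Head-to-head pairs gave different outcomes. In GENCODE for GRCm39, 3 pairs of tested members start within 1000 bases of each other on opposite strands. Atp5pf and Gabpa both rose, by 0.39 and 0.30 in Dp1Tyb and by 0.42 and 0.44 in hearts labelled Dp1TybDyrk1a+/+/-. Cct8 rose by 0.40 and 0.40, while B130034C11Rik on the other side of its start region had log2 fold changes of 0.03 and 0.05 (adjusted P-values 0.591 and 0.472). Cxadr rose by 0.35 and 0.46, while E330011O21Rik had log2 fold changes of 0.04 and 0.01 (adjusted P-values 0.178 and 0.858). The RNAs that did not pass had mean log2 values of 4.73 and 3.90.

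Partners of the members, nearly all with 2 copies in every heart, had median log2 fold changes by list of -0.092 to 0.069 in Dp1Tyb. Over the 142 tested genes of the partner lists, 19 had an unadjusted P-value under 0.05 in Dp1Tyb (limma, 13.4%, beside 15.6% of all genes). In hearts labelled Dp1TybDyrk1a+/+/- the share was 7.04%, beside 9.64%, and between the mutant genotypes it was 18.3%, beside 18.5%. Single lists, of few genes each, ranged from 0% to 100% in Dp1Tyb (2 of 2 beta subunits of GABP). Against WT in the other genotype they ranged from 0% to 40% (4 of 10 ADAMTS substrates and relatives). In Dp1Tyb, 4 of the 142 passed the adjusted threshold of limma, a share similar to that of all genes, 471 of 15304. Of the 7 other subunits of the CCT chaperonin, 0 passed the threshold in any comparison, and their median log2 fold change was -0.005 in Dp1Tyb beside 0.40 for Cct8. The most strongly expressed of them, Tcp1, had 12.85 in WT and 12.82 in Dp1Tyb. Of 48 other proteins of the large mitochondrial ribosomal subunit, 0 passed in any comparison, with a median of -0.012 in Dp1Tyb beside 0.31 for Mrpl39, and Mrpl42, the most strongly expressed, had a log2 fold change of -0.11 (adjusted P-value 0.411). Of 18 other nuclear genes of ATP synthase, 1 passed, Atp5po, which rose by 0.35 and 0.39 and lies in the same duplication beyond Hunk. The median of the 18 was -0.035, and Atp5f1b, the most strongly expressed, had -0.04. Of the 7 tested genes of ribosome quality control 0 passed, and Vcp had -0.02. Trmt112, the partner of N6amt1, had -0.04 (adjusted P-value 0.593).

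Targets, substrates and relatives showed few calls. Gabpb2, a beta subunit that pairs with the product of Gabpa, fell in Dp1Tyb by 0.09 (adjusted P-value 0.0385), a call that was lost in 10 of 15 refits that each dropped 1 heart, and Gabpb1 had a log2 fold change of -0.09 (0.309). Of 10 targets of Bach1, 0 passed, with a median of 0.002 in Dp1Tyb and -0.035 in hearts labelled Dp1TybDyrk1a+/+/-, and the most strongly expressed, Gapdh, had -0.06 and 0.13. Of 15 relatives and processing enzymes of App, Aplp1 rose in Dp1Tyb by 0.12 (adjusted P-value 0.0377), and 9 of the 15 such refits lost this call. Of 10 substrates and relatives of the ADAMTS proteases 0 passed, and Vcan, the versican gene, had 0.04 and 0.18 (adjusted P-values 0.862 and 0.438). Of 7 tested relatives and ligands of Jam2 and Cxadr 0 passed, and Tjp1 had -0.09 in Dp1Tyb. Of 4 tested relatives of Btg3 0 passed, and Btg1 had -0.07. Of 9 genes of Rac activation 0 passed against WT, and Tiam2 was higher in Dp1Tyb than in hearts labelled Dp1TybDyrk1a+/+/- by 0.13 (adjusted P-value 0.0495), a call lost in 8 of 10 such refits. Melk, a kinase related to Hunk that dividing cells express, fell in Dp1Tyb by 0.11 (adjusted P-value 0.00902) and was lower than in hearts labelled Dp1TybDyrk1a+/+/- by a log2 difference of -0.13 (adjusted P-value 0.0303), where the second call was lost in 6 of 10 such refits.

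The third comparison set the 2 duplication genotypes, which differ in functional copies of Dyrk1a, against each other. The study reports that the Dp1TybDyrk1a+/+/- mice were kept as a strain of their own. Strain and litter can therefore not be told apart from Dyrk1a dose in this comparison. Between Dp1Tyb hearts and hearts labelled Dp1TybDyrk1a+/+/-, 0 of the 36 members passed the threshold, against 1.16% of all genes tested (limma). At an unadjusted P-value under 0.05 there were 4 of the 36, beside 18.5% of all genes. The 4 differences were 0.39 for Btg3 (adjusted P-value 0.112), which shares sequence with Gm7334, -0.14 for Gabpa (0.0853), -0.12 for Mrpl39 (0.215) and -0.11 for Cxadr (0.107). Gabpa was the only member whose groups did not overlap, which 5.65% of all genes showed, with Dp1Tyb below. When hearts were weighted by their scatter in the limma fit itself, Gabpa, Cxadr and Chodl passed. Their log2 differences were then -0.10, -0.13 and 0.22 (adjusted P-values 0.0128, 0.0116 and 0.0497). Without A9, Btg3 passed at 0.527 (adjusted P-value 0.0147). The 95% intervals differed in width between members. They were -0.06 to 0.05 for App, -0.08 to 0.07 for Cct8 and -0.10 to 0.06 for Ltn1. Wider ones were 0.13 to 0.64 for Btg3, -0.18 to 0.19 for Gm9843, -0.32 to 0.03 for Gm2541 and -0.02 to 0.32 for Chodl. That of Gabpa was -0.23 to -0.06. Over the 36 members the median log2 difference, Dp1Tyb minus the other genotype, was -0.016, and it was -0.008, -0.025 and -0.015 within lanes 3, 6 and 7.

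Compared with the rest of the duplication, the genes from Lipi to Hunk gave similar values. Above a mean normalized count of 100, 23 of 25 members rose in Dp1Tyb with a median log2 fold change of 0.335, beside 22 of 24 genes after Hunk to Runx1 with 0.334 and 19 of 21 genes after Runx1 to Zbtb21 with 0.322. In hearts labelled Dp1TybDyrk1a+/+/- the medians were 0.369, 0.36 and 0.354. At the same level, genes of chromosome 16 outside the duplication had a median of -0.009 in Dp1Tyb. Of these 282 genes 2 rose and 7 fell, beside 217 that rose and 184 that fell of all 11399 genes at that level. Of the members, 36 of 123 passed the filter and were tested, beside 15304 of the 48795 genes of the whole table. In each of the other stretches 29 of 54 were tested. Of the 37 keratin-associated members 36 were at 0 in every heart, and so were Lipi, a lipase, and Tmprss15, the protease that activates trypsin in the gut. No difference between these stretches was tested.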

How the data were processed

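RNA of 20 whole embryonic hearts was sequenced with mRNA libraries. The deposited unit is log2 of a normalized count, computed by the authors for 48795 genes, and values lie between -2.31 and 18.97. The submitters' processing notes name Trimmomatic 0.36, STAR 2.5.2a, RSEM 1.2.31, DESeq2 and GRCm38. The name of the transformation and the strand setting are not given in the sources used here, and their effect on fold changes was not tested. Sequencing depth is unknown.

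Groups came from the genotype labels. The labels do not give litters, so all 10 WT hearts served both comparisons, and P-values measure the spread between embryos. Ensembl identifiers were matched to GENCODE M39 (44565 of 48795 matched) for names, order and GRCm39 positions. The test was limma 3.58.1 (R 4.3.3, 1 mean per genotype, trended prior) on the 15304 genes that averaged 10 or more normalized counts, with Benjamini-Hochberg adjustment over all of them, after the procedure had been tested on simulated data. Transcripts were compared with blastn 2.17.0. Promoter and miRNA sequences are those of RefSeq on GRCm38.p6, where 24 of the 36 tested members had a promoter window. Alternatives were the filter, scaling, prior, lane, weights, the hearts in the fit and leaving out each heart. The sums of a member and its copy, and the refits of partner genes with a heart left out, were chosen after seeing the data. The members, gene lists and tests were chosen with earlier results of these data known. By the rule for named genes, every tested member and every member with a listed role is named, values of each heart are given for the 12 members with the largest log2 fold changes in Dp1Tyb and for members with a role that did not pass, and a partner is named where it passed or was the most strongly expressed of its list.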

Additional observations from a re-analysis of the deposited data

Results flagged for a closer look

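In 19 of the 114 combinations of a measure (a tested member, Gm7334 or the median over the members) and a genotype, 1 heart lay apart from the others by Dixon's criterion, which chance meets in about 1 of 20 groups. Heart A15 was the outlying one 6 times, with 11.85 for Gabpa, 3.88 for Ncam2, 11.82 for Atp5pf, 10.56 for Scaf4, 7.76 for Rwdd2b and 3.73 for Gm37606. WT heart A10 followed with 4, namely 11.39 for Gabpa, 9.97 for Mrpl39, 11.32 for Adamts1 and 10.58 for Ltn1. These are also the hearts that lay farthest from the rest over all genes.

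Heart A9 was outlying 3 times, with 9.34 for Btg3, 8.85 for its copy Gm7334 and 10.94 for Hunk. The summed normalized count of Btg3 and Gm7334 was 1110 in A9 and 1021 to 1037 in the other hearts of its genotype. Heart A12 was outlying with 7.45 for D16Ertd472e and 11.97 for Atp5pf. The remaining cases were 5.16 for Chodl in A7, 11.64 for Cxadr and 3.52 for Gm37606 in WT heart A20, and 10.23 for Nrip1 in WT heart A19. Reasons for these values were not tested.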

How the results depend on the processing

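In the alternatives run, 23 to 24 members rose in Dp1Tyb and 23 to 24 in hearts labelled Dp1TybDyrk1a+/+/-, and no called member changed direction. In the second comparison Btg3 also passed, as a fall, without A9, without WT heart A16 and with a filter of at least 100. The median log2 fold change over the members was 0.335 in Dp1Tyb and 0.369 in hearts labelled Dp1TybDyrk1a+/+/- with a filter of at least 100, and 0.028 and 0.036 with no filter, where more weakly expressed members enter. With each heart left out in turn these medians were 0.276 to 0.289 and 0.316 to 0.337. Between the duplication genotypes, 3 members passed with weighted hearts, and with a heart left out 0 to 1 did (Btg3, without A9). For Map3k7cl in Dp1Tyb, which did not pass the threshold, the log2 fold change was -0.003 with values centred on the median, -0.004 with quantile normalization and -0.027 to 0.027 with a heart left out. That of C130023A14Rik was -0.007 to 0.006 with a heart left out. Scaf4 in Dp1Tyb also lost its call without a filter (adjusted P-value 0.061). The cause of these changes was not tested. No paired analysis was possible because the labels give the genotypes no shared replicate numbers. Depth is unknown, and at low level a missed threshold does not show that a member kept the level of WT.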
